A study of Mus musculus with 6 samples.

Results

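Serpins are serine protease inhibitors that share one protein fold, and the mouse genes are named Serpin with a letter for the clade, a branch of the family, and a number for the member. The genes described here are the rows of the count table whose symbol starts with Serpin and that held at least 10 counts summed over the 6 mice. Of 63 symbols that start with Serpin, 17 had no count and 6 had 1 to 9 counts, which left 40 members among the 26608 symbols of the table. Clade A gave 23 of them, clade B 7, clade E 3, clade F 2, and clades C, D, G, H and I 1 each. RNA was from whole liver of mice aged 6 weeks, 3 of the genotype LiKM and 3 of the genotype LiK. The labels do not spell out the genotype names, the alleles that the genotypes share, the promoter of any Cre, the strain or the sex. The publication, rather than any label, states that LiKM hepatocytes lack Mdm2, the ubiquitin ligase that keeps the transcription factor p53 low, and LiK is the genotype it is set against. Mdm2 counts were 2589, 2744 and 1255 in LiKM, against 597, 577 and 697 in LiK. These counts cover all exons of the gene, so they cannot show a deletion of part of it.

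An inhibitory serpin offers an exposed stretch, the reactive centre loop, as bait. The protease cuts the loop, stays bound to it and is dragged across the molecule and inactivated, so each molecule is used up. Hepatocytes secrete most of the serpins of blood plasma, where these hold back clotting, fibrinolysis, complement and the proteases of leukocytes, while clade B members mostly stay inside cells. Some members inhibit nothing and carry hormones or fold collagen. Mice have duplicated the human genes SERPINA1 and SERPINA3 into clusters of copies that differ most in the bait loop, so the sequences around it are shown first for the Serpina1 copies.

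The 5 Serpina1 copies with counts encode forms of alpha-1-antitrypsin, known as the plasma inhibitor of neutrophil elastase. Which of the copies inhibit that protease cannot be read from these data. Over the coding sequence they were 96.3% to 98.5% identical, and 86 positions differed among them. A window of 60 bases that ends 82 bases before the end of the coding sequence held 18 of the 86, and it encodes the reactive centre loop. It is shown in GENCODE M21 transcripts on GRCm38, with the bases that differ among the copies in capitals:
Serpina1a, chr12:103853757-103853816 (minus strand): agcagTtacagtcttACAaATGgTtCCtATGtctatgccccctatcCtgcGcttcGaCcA
Serpina1b, chr12:103728324-103728383 (minus strand): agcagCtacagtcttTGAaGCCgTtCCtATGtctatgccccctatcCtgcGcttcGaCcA
Serpina1c, chr12:103895094-103895153 (minus strand): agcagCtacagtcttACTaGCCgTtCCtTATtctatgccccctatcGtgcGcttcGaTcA
Serpina1d, chr12:103763762-103763821 (minus strand): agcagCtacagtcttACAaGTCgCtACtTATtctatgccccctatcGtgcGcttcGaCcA
Serpina1e, chr12:103947100-103947159 (minus strand): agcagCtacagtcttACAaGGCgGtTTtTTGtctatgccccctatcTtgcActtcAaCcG
Bases 29 to 31 of the window, 1 codon in the reading frame, sorted the copies into 3 kinds. Serpina1a and Serpina1b read ATG there, Serpina1c and Serpina1d TAT, and Serpina1e TTG. Outside such windows the copies are so alike that short reads cannot always be placed: 58.5% of the 100-base stretches of the Serpina1c transcript also occur in the transcript of another gene, against 49.9% for Serpina1a, 29.3% for Serpina1d, 20.6% for Serpina1b and 14.8% for Serpina1e. How the authors counted reads that fit several genes is not stated in any source at hand, so the values of single Serpina1 copies are uncertain. Serpina1b and Serpina1d also overlap on the same strand in that annotation.

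Libraries held 19909993 to 20762712 counts in LiKM and 20778717 to 24874343 in LiK. Differences were tested with the quasi-likelihood test of edgeR on the 13537 genes with enough counts, and the call threshold was a Benjamini-Hochberg adjusted p of 0.05 across all of them. The first principal component of log2 CPM separated the genotypes and took 53.0% of the variance. On the second (18.2%), LiKM 3 lay at -37.8, against 28.4 and 20.2 for LiKM 1 and LiKM 2. Nothing in the labels marks a batch. Levels are CPM, that is counts scaled to a common library total, after TMM scaling, which evens out library composition. A log2 fold change is LiKM over LiK, given with its standard error (SE), and each genotype has n = 3 mice.

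Of the 40 members, 32 had enough counts for the test. Serpina3f and Serpina3g were higher in LiKM, and Serpina12, Serpina1c and Serpina1e were lower, all of them clade A. That is 6.25% of the tested members called higher, against 5.11% of all genes tested, and 9.38% called lower, against 0.813% of all genes tested. The share called higher was near that of all genes. Of the 3 called lower, Serpina1c and Serpina1e are neighbouring copies that share reads. The counts of called members depended on single libraries: without LiKM 2, LiK 1 or LiK 2, edgeR called 0 members, with 6, 6 and 4 higher and 6, 5 and 6 lower at an unadjusted p under 0.05. Without LiKM 3 it called 1 higher and 1 lower, and without LiKM 1, 1 higher and 2 lower. With all mice, DESeq2 called 3 higher and 6 lower, and limma-voom 4 higher and 5 lower. In TMM-scaled CPM, the LiKM libraries lay all above the LiK libraries for 7 members (21.9%, against 17.8% of all genes tested). They lay all below them for 8 (25%, against 11.8%), and the genotypes overlapped for 17. Those below include Serpina1a, Serpina1c and Serpina1e, which share reads. Serpina1a was apart by little, with LiKM 1 at 3932 CPM and LiK 3 at 3938 CPM. The median log2 fold change of the 32 members was -0.07, and that of all genes tested was -0.0034. By clade, the median was -0.43 over 19 members of clade A and 0.68 over 4 members of clade B. All members together took 2.25% ± 0.371 of the TMM-scaled counts in LiKM and 2.97% ± 0.394 in LiK (SD). The genotypes did not overlap, with LiKM 1 at 2.56% next to LiK 3 at 2.58%. The difference of -0.720 percentage points had a two-sided exact permutation p of 0.1, the smallest that 3 mice against 3 can give. As a share of raw library totals the difference was -0.433 percentage points and p was 0.2.

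**Figure D1:**
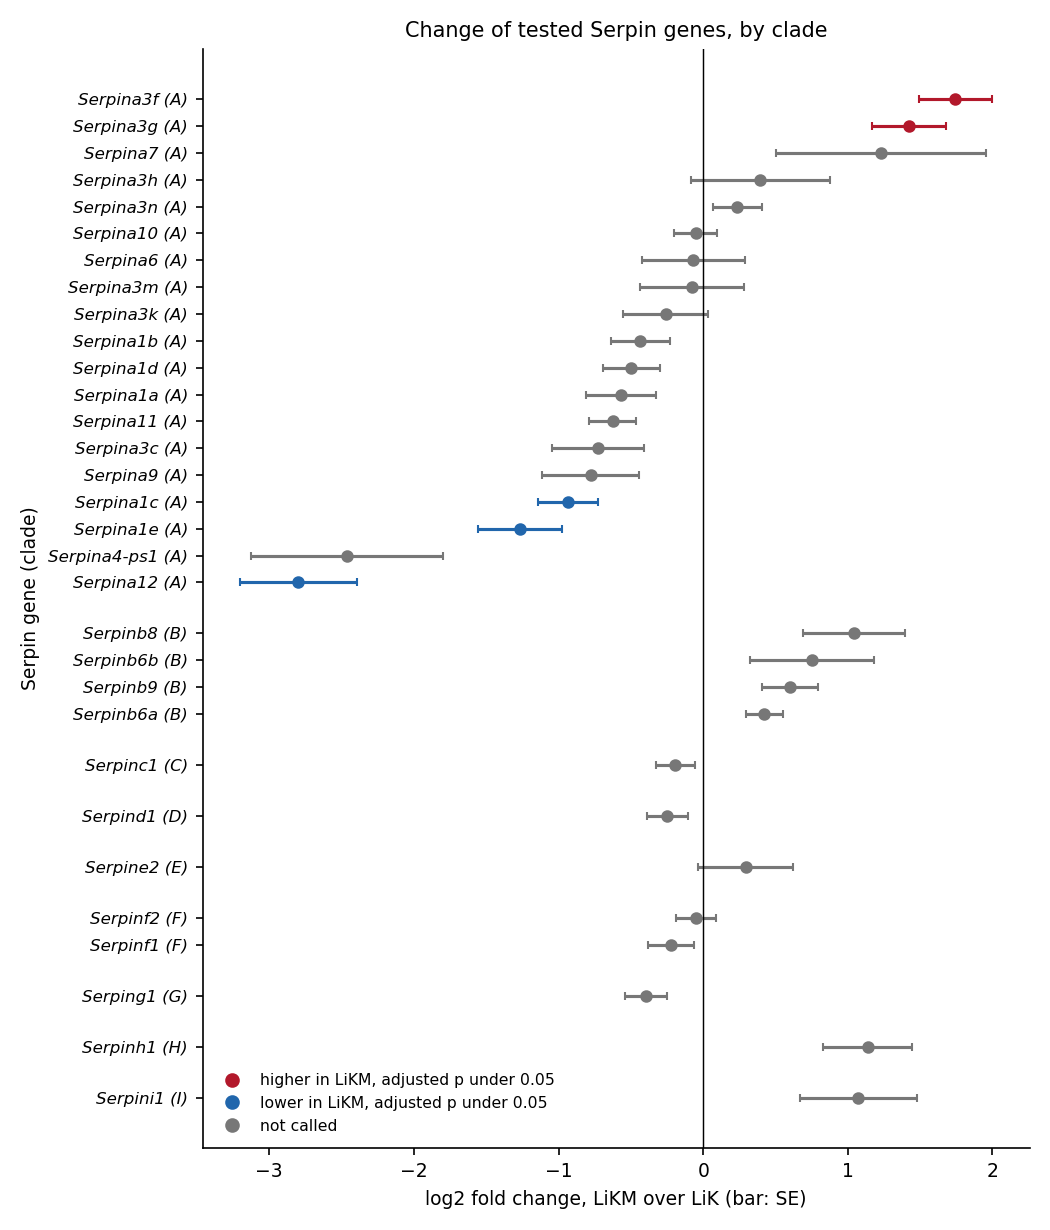
Log2 fold change, LiKM over LiK, of the tested Serpin genes described here, grouped by clade letter; points are edgeR estimates and bars are 1 SE. The 5 coloured points, all clade A, passed an adjusted p of 0.05; every tested clade B point lies above 0.

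All 5 Serpina1 copies had a log2 fold change below 0, and Serpina1c and Serpina1e passed the test. Serpina1c had 1695, 1258 and 1516 CPM in LiKM 1, 2 and 3, against 3303, 3066 and 2160 CPM in LiK 1, 2 and 3. All LiKM values lay below all LiK values, with LiK 3 the nearest to LiKM. Its log2 fold change was -0.93 (SE 0.21, edgeR adjusted p = 0.0467). Serpina1e, whose RNA was scarcest of the 5, had 38.5, 67.6 and 53.9 CPM in LiKM, against 166, 134 and 84.5 CPM in LiK, again without overlap and with LiK 3 lowest in its genotype. Its log2 fold change was -1.27 (SE 0.29, edgeR adjusted p = 0.0498).

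The other 3 copies did not pass the test. Serpina1a had 3932, 2212 and 2534 CPM in LiKM, against 4816, 4106 and 3938 CPM in LiK, with LiKM 1 just below LiK 3 (log2 fold change -0.57, SE 0.24, edgeR adjusted p = 0.219). Serpina1b had 5280, 3385 and 3876 CPM in LiKM, against 6228, 5520 and 5197 CPM in LiK, and LiKM 1 overlapped the LiK mice (-0.43, SE 0.21, edgeR adjusted p = 0.269). Serpina1d was even in LiKM, with 1365, 1233 and 1308 CPM, against 2214, 1940 and 1358 CPM in LiK, where LiK 3 fell within the range of LiKM (-0.50, SE 0.20, edgeR adjusted p = 0.192).

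**Figure D2:**
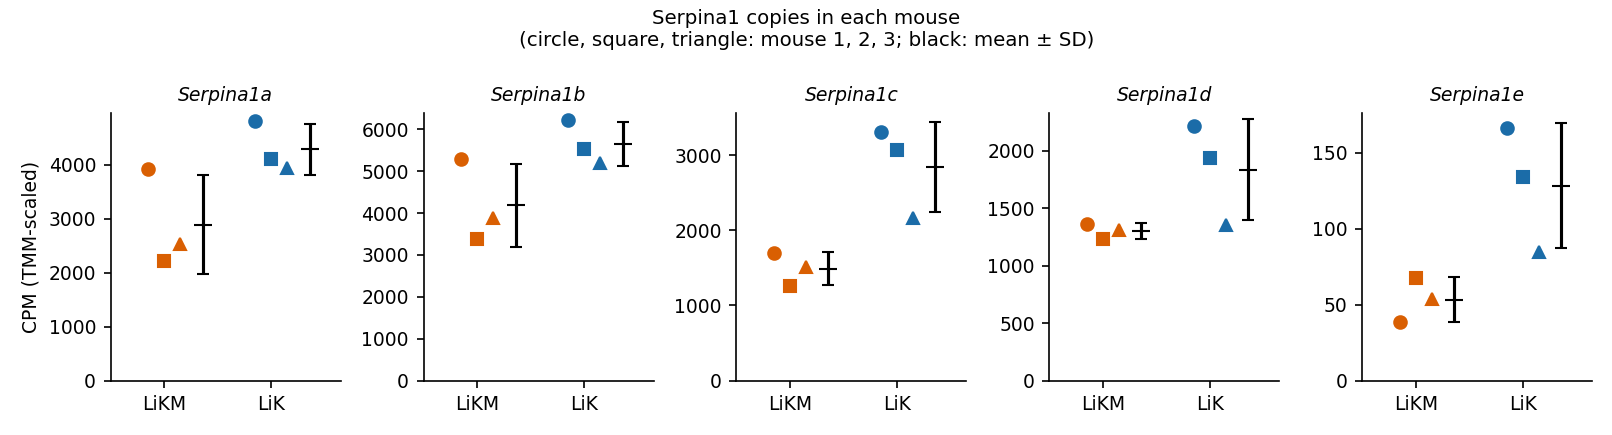
TMM-scaled CPM of the 5 Serpina1 copies in each mouse, LiKM left of LiK; circle, square and triangle are mice 1, 2 and 3, and black marks are mean ± SD. The LiKM points lie below all LiK points for Serpina1a, Serpina1c and Serpina1e, and overlap them for Serpina1b and Serpina1d.

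Because reads can be split among the copies, their sum was compared as well. The Serpina1 copies took 1.23%, 0.816% and 0.929% of the TMM-scaled counts in LiKM, against 1.67%, 1.48% and 1.27% in LiK. The genotypes did not overlap, with LiKM 1 next to LiK 3, and the exact permutation p was 0.1, the smallest possible. Without TMM scaling the separation was lost: as shares of raw library totals the difference was -0.347 percentage points with p = 0.2 (exact permutation). With the 5 copies added up as 1 row of the table, an alternative chosen after seeing the data, the log2 fold change was -0.57 (SE 0.22, edgeR adjusted p = 0.184), so the family did not pass as a whole. The share of each copy in the sum was compared too, although reads of the copies cannot always be placed. Serpina1c made up 15.2% ± 1.30 of the Serpina1 counts in LiKM and 19.2% ± 1.97 in LiK, and Serpina1b 42.0% ± 0.744 in LiKM and 38.5% ± 2.02 in LiK (SD), with no overlap between genotypes in either (exact permutation p = 0.1 for each, the smallest possible). The shares of Serpina1a, Serpina1d and Serpina1e overlapped (exact permutation p = 0.8, 0.5 and 0.2). By the codon shown above, the copies with ATG held 74.8%, 68.6% and 69.0% of the Serpina1 counts in LiKM, against 66.0%, 65.2% and 71.7% in LiK. Those with TAT held 24.9%, 30.5% and 30.4% in LiKM, against 33.0%, 33.9% and 27.6% in LiK, so in both kinds LiK 3 lay among the LiKM mice.

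The calls of the Serpina1 copies depended on single libraries. Serpina1c was called in 1 of 6 fits that each left out a library, that without LiK 3. Its adjusted p was 0.0757, 0.154 and 0.0841 without LiKM 1, 2 and 3, and 0.147 and 0.146 without LiK 1 and LiK 2. Serpina1e was likewise called in the fit without LiK 3 and in no other, with an adjusted p of 0.105, 0.0899 and 0.0899 without LiKM 1, 2 and 3, and of 0.150 and 0.144 without LiK 1 and LiK 2. Both stayed negative in every fit, between -1.10 and -0.81 for Serpina1c and between -1.50 and -1.04 for Serpina1e on the log2 scale. Of 6 hepatocyte marker genes, edgeR called 0 (2 lower at an unadjusted p under 0.05), limma-voom 0 and DESeq2 1 lower. Their median log2 fold change was -0.27, with 2 of the 6 above 0. Their summed level was 110203 to 124301 CPM in LiKM, against 101624 to 125912 CPM in LiK. In bulk tissue, fewer cells of a type and less RNA per cell cannot be told apart.

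Serpina1e is known in mice as a gene with more RNA in male than in female liver. Of 16 other genes with higher levels in male liver, 4 were called lower in LiKM and none higher, with a median log2 fold change of -0.76. Their summed level was 4524 to 7920 CPM in LiKM, against 8536 to 11812 CPM in LiK. The 4 were Cyp2d9 (-0.89, SE 0.16), Susd4 (-2.43, SE 0.46), Cyp7b1 (-2.97, SE 0.59) and Hsd3b5 (-1.63, SE 0.37), all log2 fold changes. Of 10 tested genes known for higher levels in female liver, 3 were called higher and none lower, with a median of 2.58: Cyp3a44 (5.08, SE 0.80), Hao2 (3.67, SE 0.71) and Cyp2b9 (2.65, SE 0.59). Without LiKM 1, 2 and 3, edgeR called 4, 0 and 2 of the male-biased genes lower and 1, 1 and 2 of the female-biased genes higher. Without LiK 1, 2 and 3 it called 0, 0 and 1 of the male-biased and 0, 0 and 2 of the female-biased genes. Their part in the Serpina1 result was not tested.

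The 250 bases before the start of the Serpina1c and Serpina1e genes are shown next, as RefSeq gives them on GRCm38.p6. These copies were chosen because they passed the test. Whether they changed more than the other Serpina1 copies was not tested. Capitals mark matches to 2 of 4 motifs searched on either strand, GTTAAT, a stretch of the site of the hepatocyte factor HNF1, and TGANTCA, the AP-1 site:
Serpina1c, chr12:103904951-103905200 (minus strand): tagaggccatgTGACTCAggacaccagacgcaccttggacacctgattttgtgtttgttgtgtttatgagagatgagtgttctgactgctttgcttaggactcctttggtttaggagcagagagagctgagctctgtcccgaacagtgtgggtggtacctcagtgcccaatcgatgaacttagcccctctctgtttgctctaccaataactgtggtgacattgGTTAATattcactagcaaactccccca
Serpina1e, chr12:103956898-103957147 (minus strand): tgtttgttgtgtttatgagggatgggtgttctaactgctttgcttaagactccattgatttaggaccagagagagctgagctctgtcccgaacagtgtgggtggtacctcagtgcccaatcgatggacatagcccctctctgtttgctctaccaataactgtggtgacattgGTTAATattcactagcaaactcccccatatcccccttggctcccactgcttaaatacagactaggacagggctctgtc
GTTAAT occurred in the promoters of all 5 copies with counts, against 6.43% of the 32851 promoter windows of the same length in the table. TGANTCA, found in 6.75% of those windows, occurred in Serpina1a to Serpina1d and not in the Serpina1e window. The annotated start of Serpina1e lies further along than those of the others, so its GTTAAT sits at -78 rather than at -27 as in Serpina1c, and the bases that hold TGANTCA in the other copies lie outside its window. Aligned to one another, the 5 promoters were 92.1% to 98.0% identical. A match is a description of letters and not of binding.

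The Serpina3 cluster encodes relatives of antichymotrypsin, and its copies went different ways. Serpina3f and Serpina3g, scarce copies known from lymphoid and myeloid cells, were higher in LiKM, while the copies with the most hepatic RNA did not pass. Serpina3g, which inhibits cysteine cathepsins inside cells and is known as a gene induced by interferon gamma, had 14.2, 16.3 and 17.2 CPM in LiKM, against 6.31, 3.72 and 7.72 CPM in LiK. The lowest LiKM mouse lay well above the highest LiK mouse, LiK 3. Its log2 fold change was 1.42 (SE 0.26, edgeR adjusted p = 0.0284). Serpina3f had 4.79, 5.67 and 5.45 CPM in LiKM, against 1.64, 1.11 and 1.97 CPM in LiK. The genotypes were again apart, with a log2 fold change of 1.74 (SE 0.25, edgeR adjusted p = 0.0196). In raw reads these were 102, 125 and 113 counts of Serpina3f in LiKM, against 34, 22 and 48 in LiK.

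The neighbours of this pair had too few counts to say as much. Serpina3h had 1.27, 0.681 and 1.30 CPM in LiKM, against 1.40, 0.503 and 0.575 CPM in LiK, with LiK 1 the highest mouse of all (log2 fold change 0.39, SE 0.48, edgeR adjusted p = 0.669). Serpina3i was below the filter and had 10, 4 and 7 counts in LiKM, against 1, 2 and 3 in LiK. Serpina3f and Serpina3g were 87.4% identical over aligned coding bases, and 3.58% and 4.64% of the 100-base stretches of their transcripts occur in another gene's transcript, far less than for the Serpina1 copies. Added up as 1 row, Serpina3f to Serpina3i had a log2 fold change of 1.43 (SE 0.24, edgeR adjusted p = 0.0245). Leaving out a library kept the sum between 1.19 and 1.60, with adjusted p between 0.0405 and 0.0870. Serpina3f on its own lost its call without LiKM 2 (adjusted p = 0.0763), LiK 1 (0.0810) or LiK 2 (0.0616). Serpina3g lost it in every fit but that without LiK 3, with adjusted p of 0.0545, 0.0929 and 0.0514 without LiKM 1, 2 and 3, and of 0.102 and 0.0616 without LiK 1 and LiK 2. Neither passed a test against a 1.5-fold change (adjusted p = 0.0536 for Serpina3f and 0.105 for Serpina3g).

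Marker lists of T cells and natural killer cells and of macrophages and monocytes were also higher in LiKM. Of 11 tested T cell and natural killer cell markers, 10 were called higher in LiKM, among them Cd8a (log2 fold change 4.10, SE 0.37) and Il2rb (2.31, SE 0.29). Their summed level was 14.8 to 21.4 CPM in LiKM, against 2.42 to 3.02 CPM in LiK, and Gzmk was at 0 in all 3 LiK mice. The filter asks for about 10 counts in 3 libraries, so a marker this scarce in LiK can pass it through LiKM alone. The share of tested markers called higher is therefore partly set by the filter. Of 12 macrophage and monocyte markers, 7 were called higher, with 335 to 400 CPM summed in LiKM, against 216 to 267 CPM in LiK. Without LiKM 1, 2 and 3, edgeR called 6, 1 and 9 of the T cell and natural killer cell markers and 4, 0 and 4 of the macrophage markers. Without LiK 1, 2 and 3 it called 1, 0 and 5 of the T cell and natural killer cell markers and 0, 1 and 2 of the macrophage markers. Their part in the rise of Serpina3f and Serpina3g was not tested.

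The abundant Serpina3 copies overlapped between genotypes. Serpina3k, the main liver copy and an inhibitor of tissue kallikrein, had 5600, 3300 and 6936 CPM in LiKM, against 7645, 6136 and 5163 CPM in LiK (log2 fold change -0.26, SE 0.29, edgeR adjusted p = 0.646). Serpina3m had 967, 521 and 560 CPM in LiKM, against 980, 775 and 410 CPM in LiK (-0.08, SE 0.36, edgeR adjusted p = 0.916). LiKM 2 was the lowest mouse for Serpina3k and LiK 3 for Serpina3m, so neither genotype stood apart. Serpina3n, the copy best known for its rise in the acute phase response, had 660, 619 and 562 CPM in LiKM, against 569, 587 and 408 CPM in LiK (0.24, SE 0.17, edgeR adjusted p = 0.457). Serpina3c had 132, 71.0 and 53.2 CPM in LiKM, against 160, 141 and 123 CPM in LiK, where LiKM 1 fell within LiK (-0.73, SE 0.32, edgeR adjusted p = 0.231). Without LiKM 1, Serpina3c passed, with a log2 fold change of -1.21 and an adjusted p of 0.0385, the lowest among its alternatives, which reached 1.00. The 10 Serpina3 copies together took 0.668% ± 0.190 of the TMM-scaled counts in LiKM and 0.771% ± 0.163 in LiK (SD, exact permutation p = 0.6), and the difference of -0.102 percentage points turned to 0.00499 without LiKM 2. Serpina3k alone held 78.0% ± 6.49 of the Serpina3 counts in LiKM and 82.1% ± 2.13 in LiK (SD).

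**Figure D3:**
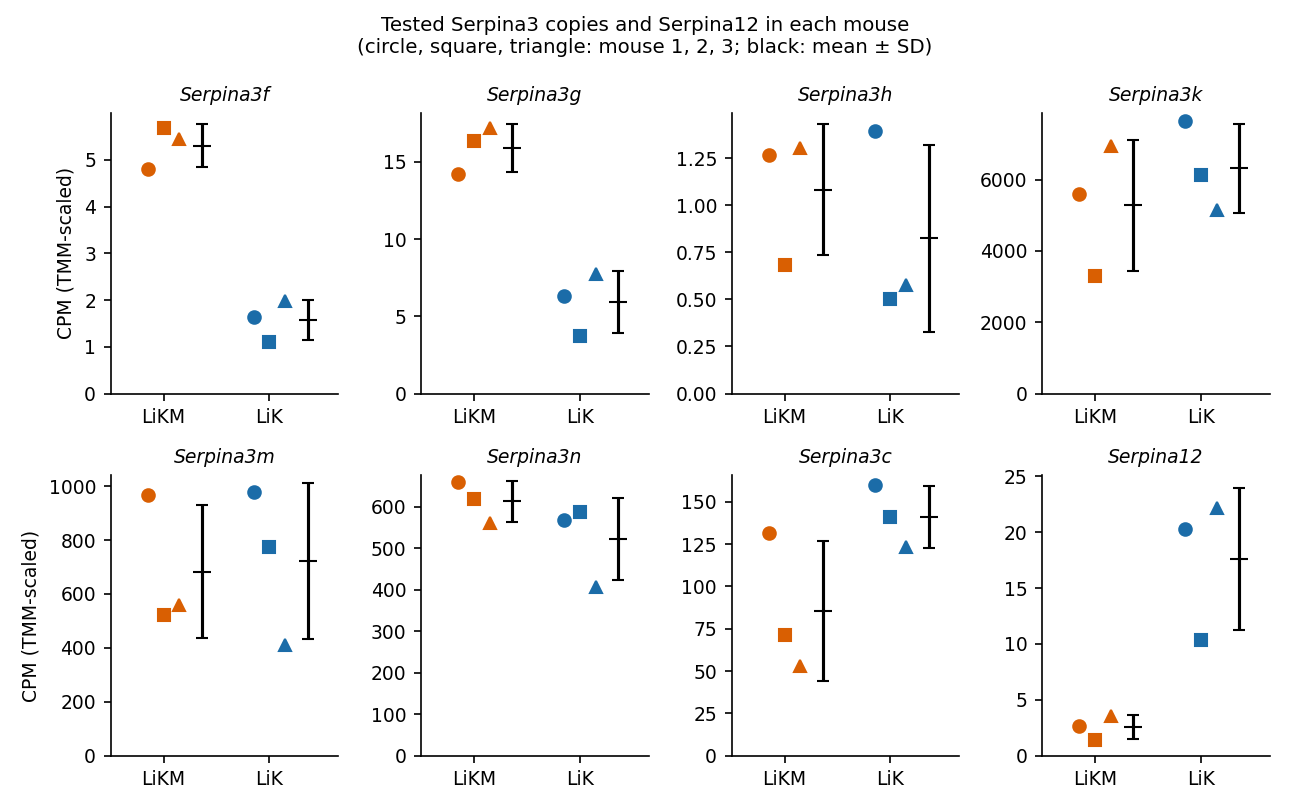
TMM-scaled CPM of the 7 tested Serpina3 copies and of Serpina12 in each mouse, LiKM left of LiK; circle, square and triangle are mice 1, 2 and 3, and black marks are mean ± SD. Serpina3f and Serpina3g lie higher and Serpina12 lower in all LiKM mice, while Serpina3k, Serpina3m and Serpina3n overlap.

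The promoters of the pair called higher are printed here from the same RefSeq table, with capitals for matches to the STAT site TTCNNNGAA and to GAAANNGAA, a core of interferon response elements:
Serpina3f, chr12:104214294-104214543 (plus strand): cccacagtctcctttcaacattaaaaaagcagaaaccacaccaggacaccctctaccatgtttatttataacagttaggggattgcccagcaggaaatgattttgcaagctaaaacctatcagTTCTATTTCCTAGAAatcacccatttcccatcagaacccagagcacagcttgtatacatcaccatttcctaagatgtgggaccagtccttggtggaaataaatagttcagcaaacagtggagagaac
Serpina3g, chr12:104235897-104236146 (plus strand): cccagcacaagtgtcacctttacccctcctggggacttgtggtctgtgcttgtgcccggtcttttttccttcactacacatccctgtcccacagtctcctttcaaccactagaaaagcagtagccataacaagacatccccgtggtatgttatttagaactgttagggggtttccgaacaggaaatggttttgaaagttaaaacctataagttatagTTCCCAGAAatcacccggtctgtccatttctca
The STAT letters were at -121 in Serpina3f, where they overlap a match to GAAANNGAA on the other strand at -127, and at -33 in Serpina3g. RefSeq gives another start for Serpina3f, from which the same matches lie at -210 and -216. Serpina3i, the scarce neighbour, held TTCNNNGAA at -102. Among all promoter windows, 7.02% held TTCNNNGAA and 7.13% GAAANNGAA. Of the 30 members with a promoter in the table, Serpina11 and Serpinb6a also held TTCNNNGAA, and Serpinb6a, Serpinb9, Serpinb7, Serpina3b and Serpina5 also held GAAANNGAA. Serpina11, Serpinb6a and Serpinb9 did not pass the test, and the other 3 were too scarce for it.

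Serpina12 had the largest fall of the tested members. The gene encodes vaspin, an inhibitor of kallikrein 7 first known as a protein of fat tissue. It had 2.68, 1.41 and 3.52 CPM in LiKM, against 20.3, 10.4 and 22.2 CPM in LiK. The highest LiKM mouse lay below the lowest LiK mouse, LiK 2. Its log2 fold change was -2.80 (SE 0.40, edgeR adjusted p = 0.0188), and the ratio of mean CPM was 0.144. It was called in all 9 other settings tried with all 6 mice, the 1.5-fold test included. It lost the call without LiKM 2 (adjusted p = 0.0619), LiK 1 (0.0780) or LiK 2 (0.0551), where the log2 fold change was -2.53, -2.69 and -3.07. None of the 100-base stretches of its transcript occurs in another gene's transcript. Its promoter, which held none of the 4 motifs, is given as the window of the most changed member:
Serpina12, chr12:104044444-104044693 (minus strand): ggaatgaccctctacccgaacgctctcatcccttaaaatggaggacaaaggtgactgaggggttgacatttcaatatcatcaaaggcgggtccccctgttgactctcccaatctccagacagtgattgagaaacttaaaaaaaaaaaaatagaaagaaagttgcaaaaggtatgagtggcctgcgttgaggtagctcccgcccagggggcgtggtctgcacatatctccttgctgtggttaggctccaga

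Serpina12 lies on chromosome 12 between Serpina9 and Serpina4-ps1, and values of these neighbours were also lower in LiKM without passing. Serpina4-ps1, annotated as an unprocessed pseudogene, had 99.8, 31.4 and 158 CPM in LiKM, against 572, 810 and 212 CPM in LiK. The genotypes did not overlap, but the spread was wide (log2 fold change -2.46, SE 0.66, edgeR adjusted p = 0.0787). Serpina11 had 185, 169 and 215 CPM in LiKM, against 290, 343 and 244 CPM in LiK, also without overlap (-0.62, SE 0.16, edgeR adjusted p = 0.0690). Of the 100-base stretches of its transcript, 42.4% also occur in that of the gene model Gm28577, which overlaps it and has no row in the table. Serpina9, known from germinal centre B cells in humans, had 6.48, 3.31 and 5.06 CPM in LiKM, against 11.2, 5.38 and 8.86 CPM in LiK (-0.78, SE 0.33, edgeR adjusted p = 0.226). Along the chromosome, the 11 genes in the order Serpina10, Serpina6, Serpina1b, Serpina1d, Serpina1a, Serpina1c, Serpina1e, Serpina11, Serpina9, Serpina12 and Serpina4-ps1 all had a log2 fold change below 0. The tested genes after them, Serpina3c to Serpina3n, were of mixed sign. Serpina5, the protein C inhibitor, lies between the groups. It had 4, 2 and 0 counts in LiKM, against 11, 14 and 1 in LiK, too few for the test. Of the 11 genes below 0, Serpina10 (-0.05, SE 0.15) and Serpina6 (-0.07, SE 0.36) lay near 0. With library totals as the only scaling, both turned positive (0.11 each). The Serpina1 copies among the 11 share reads, and the median log2 fold change of all genes tested was -0.0034.

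**Figure D4:**
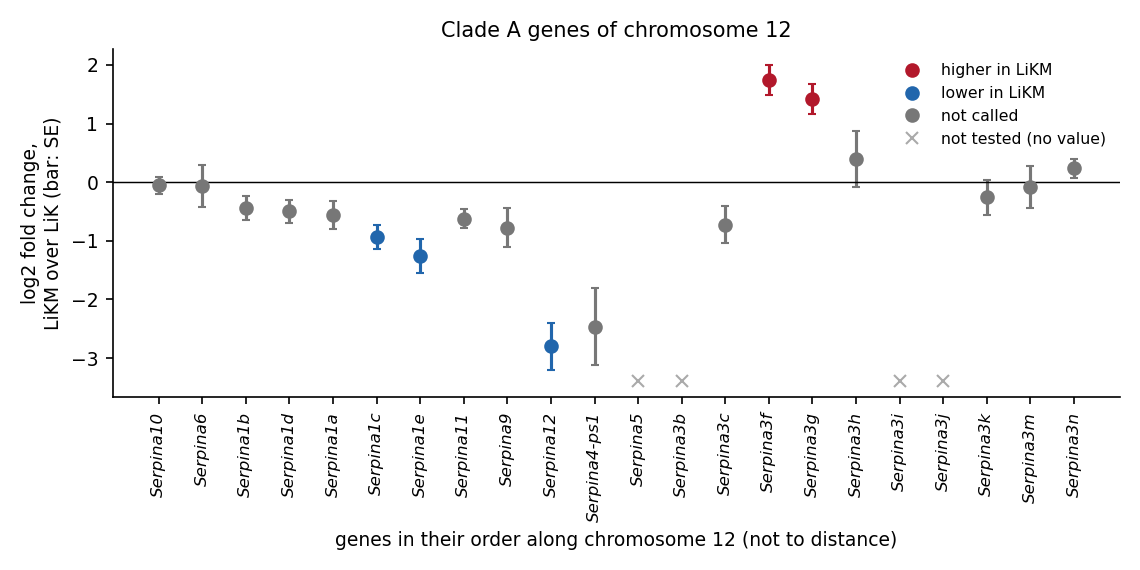
Log2 fold change (bar: 1 SE), LiKM over LiK, of the clade A genes of chromosome 12 in their order along it, not to distance; crosses at the bottom mark untested genes, which have no value. The 11 genes from Serpina10 to Serpina4-ps1 lie below 0, Serpina10 and Serpina6 by less than 1 SE. The called rises are the neighbours Serpina3f and Serpina3g.

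The hormone carriers of clade A differed more among mice than between genotypes. Serpina6, the corticosteroid-binding globulin, had 243, 480 and 170 CPM in LiKM, against 335, 256 and 345 CPM in LiK (log2 fold change -0.07, SE 0.36, edgeR adjusted p = 0.928). LiKM 2 was the highest and LiKM 3 the lowest of the 6 mice. Serpina7, the thyroxine-binding globulin and the only member on the X chromosome, had 19.9, 19.3 and 73.2 CPM in LiKM, against 4.82, 14.0 and 28.8 CPM in LiK (1.23, SE 0.73, edgeR adjusted p = 0.371). LiKM 3 was the highest of its genotype and LiK 3 of the other, and LiKM 1 and LiKM 2 lay below LiK 3. Serpina10, which inhibits clotting factor Xa together with protein Z, was even, with 238, 209 and 240 CPM in LiKM, against 268, 250 and 195 CPM in LiK (-0.05, SE 0.15, edgeR adjusted p = 0.860).

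Clade B members protect cells from proteases that leak from their own granules or lysosomes. All 4 tested had a log2 fold change above 0, and edgeR called 0 of them (3 higher at an unadjusted p under 0.05), DESeq2 0 and limma-voom 1, Serpinb6a. Serpinb6a, an inhibitor of cathepsin G, had 15.9, 16.6 and 13.7 CPM in LiKM, against 10.8, 11.6 and 12.1 CPM in LiK (log2 fold change 0.42, SE 0.13, edgeR adjusted p = 0.107). Serpinb9, the inhibitor of granzyme B, had 8.55, 9.53 and 13.2 CPM in LiKM, against 7.03, 6.29 and 7.30 CPM in LiK (0.60, SE 0.19, edgeR adjusted p = 0.127). Neither gene overlapped between genotypes. Serpinb8, known in humans as an inhibitor of furin, had 2.40, 2.99 and 4.97 CPM in LiKM, against 1.20, 1.66 and 2.13 CPM in LiK, also without overlap (1.04, SE 0.35, edgeR adjusted p = 0.140). Serpinb6b was high in LiKM 3 alone, at 5.40 CPM against 1.83 and 2.27 CPM in LiKM 1 and LiKM 2, and the LiK mice had 1.97, 2.06 and 1.60 CPM (0.75, SE 0.43, edgeR adjusted p = 0.353). Serpinb6a overlaps Nqo2 and Ripk1 on the opposite strand, and no source at hand states the strand setting of the counting. The 7 clade B members took 0.0033% of the TMM-scaled counts in LiKM and 0.0022% in LiK, without overlap (exact permutation p = 0.1, the smallest possible). The untested Serpinb9b had 2, 3 and 8 counts in LiKM, against 2, 0 and 0 in LiK. Serpinb1a, an inhibitor of neutrophil elastase, had 6, 5 and 9 in LiKM, against 4, 4 and 8 in LiK, and Serpinb7 had 1 in each LiKM mouse, against 5, 1 and 3 in LiK.

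Among the proteases these inhibitors meet, granzymes were scarce. Of 15 granule and lysosomal proteases listed, 9 were tested, and 3 were called higher in LiKM and none lower, with a median log2 fold change of 0.62. Ctss, a cathepsin of antigen-presenting cells, had a log2 fold change of 1.19 (SE 0.16, edgeR adjusted p = 0.0168). Gzmb, the target of Serpinb9, had 18, 27 and 17 counts in LiKM, against 4, 6 and 4 in LiK (2.12, SE 0.39, edgeR adjusted p = 0.0305). Gzmk had 10, 22 and 14 counts in LiKM and none in LiK, and was called. Both granzymes reached the filter of about 10 counts in LiKM only, so they were tested because they are high there. The share of proteases called higher is therefore partly set by the filter. Ctss is also in the macrophage marker list above, and Gzmb and Gzmk are in that of T cells and natural killer cells. These lists share genes and are not separate observations. Without LiKM 1, 2 and 3, edgeR called 2, 0 and 3 of these proteases, and without LiK 1, 2 and 3 it called 0, 1 and 1. Markers of neutrophils, the source of neutrophil elastase, summed to 11.9 to 21.8 CPM in LiKM, against 5.46 to 19.0 CPM in LiK. Of these markers, edgeR, DESeq2 and limma-voom called 0 of 4, with 0 at an unadjusted p under 0.05. Mast cell markers summed to 7.12 to 11.8 CPM in LiKM, against 3.98 to 5.74 CPM in LiK, with Tpsab1 at 0 in all mice. The 1 tested mast cell marker was called by DESeq2 and not by edgeR or limma-voom.

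Of the 5 other abundant plasma serpins, which act in clotting, fibrinolysis, complement and vessel growth, edgeR and limma-voom called 0 (1 lower at an unadjusted p under 0.05), and DESeq2 called Serping1. Serpinc1, antithrombin, had 1728, 1878 and 2038 CPM in LiKM, against 2185, 2101 and 2160 CPM in LiK. The LiKM mice lay below the LiK mice by little (log2 fold change -0.19, SE 0.13, edgeR adjusted p = 0.438). Serping1, the inhibitor of the first complement component, had 948, 805 and 943 CPM in LiKM, against 1244, 1267 and 1037 CPM in LiK, also without overlap (-0.40, SE 0.14, edgeR adjusted p = 0.160). Serpind1, heparin cofactor, had 793, 696 and 650 CPM in LiKM, against 929, 759 and 850 CPM in LiK, where LiKM 1 lay above LiK 2 (-0.25, SE 0.14, edgeR adjusted p = 0.351). Serpinf2, the plasmin inhibitor, had 988, 873 and 1021 CPM in LiKM, against 1063, 877 and 1050 CPM in LiK (-0.05, SE 0.14, edgeR adjusted p = 0.851). Serpinf1, a secreted serpin that blocks vessel growth and inhibits no protease, had 570, 470 and 619 CPM in LiKM, against 626, 565 and 744 CPM in LiK (-0.22, SE 0.16, edgeR adjusted p = 0.460). Serpinc1 and Serpind1 overlap Zbtb37 and Pi4ka on the opposite strand.

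Of 17 plasma proteases and zymogens that these serpins act on, edgeR called 0 (2 lower at an unadjusted p under 0.05), and DESeq2 and limma-voom each called 1 lower. The median log2 fold change was -0.21. The 2 with the highest level were Plg, plasminogen (-0.33, SE 0.15, edgeR adjusted p = 0.262), and F2, prothrombin (-0.22, SE 0.14, edgeR adjusted p = 0.400). Their summed level was 8630 to 9513 CPM in LiKM, against 10277 to 11379 CPM in LiK, without overlap. Of 25 other plasma proteins made by the liver, edgeR, DESeq2 and limma-voom called 0. At an unadjusted p under 0.05, edgeR had 1 lower, DESeq2 7 and limma-voom 7, and each had 0 higher. The median log2 fold change was -0.13, with 6 of the 25 above 0. The 2 highest, Alb (0.10, SE 0.23) and Trf (-0.10, SE 0.23), were of opposite sign.

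The remaining members are described next, and which liver cells their RNA came from was not tested. Serpinh1, the collagen chaperone of the endoplasmic reticulum, had 19.0, 21.3 and 27.3 CPM in LiKM, against 11.4, 5.74 and 13.5 CPM in LiK. All LiKM mice lay above all LiK mice, but the test was missed (log2 fold change 1.14, SE 0.31, edgeR adjusted p = 0.0789). It passed with library totals as the only scaling (adjusted p = 0.0459), with DESeq2 (0.00852) and with limma-voom (0.0318). Over all alternatives its adjusted p was between 0.00852 and 0.340. Of 18 collagen and collagen-processing genes, 5 were called higher and none lower, with a median of 0.60, among them Col6a3 (1.39, SE 0.22), Col5a2 (1.40, SE 0.23), Plod2 (1.78, SE 0.33) and Col1a1 (1.57, SE 0.30). Of 12 stellate cell and fibroblast markers, 4 were called higher, with 663 to 726 CPM summed in LiKM, against 253 to 413 CPM in LiK. Without LiKM 1, 2 and 3, edgeR called 1, 0 and 6 of the collagen genes and 0, 0 and 3 of the stellate cell markers. Without LiK 1, 2 and 3 it called 0, 0 and 6 of the collagen genes and 0, 0 and 5 of the stellate cell markers. With all mice, DESeq2 called 8 of each list. Col1a1 is in both lists, so they are not separate observations. Their part in the Serpinh1 values was not tested.

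Serpine2, which inhibits thrombin and plasminogen activators at cell surfaces, had 2.77, 2.18 and 2.02 CPM in LiKM, against 2.46, 2.11 and 1.15 CPM in LiK (0.29, SE 0.33, edgeR adjusted p = 0.640). Serpini1, neuroserpin, had 12, 11 and 17 counts in LiKM, against 8, 6 and 5 in LiK (1.07, SE 0.40, edgeR adjusted p = 0.176). Serpine3 was below the filter, with 6, 10 and 4 counts in LiKM, against 5, 4 and 6 in LiK. Of 13 tested membrane proteases, receptors and their other inhibitors, 3 were called higher and none lower, with a median of 0.16. St14, the membrane protease matriptase, had 15.5 ± 7.92 CPM in LiKM and 0.465 ± 0.181 CPM in LiK (SD; log2 fold change 5.05, SE 0.55). Plaur, the urokinase receptor, had a log2 fold change of 1.89 (SE 0.41) and Htra1 of 1.08 (SE 0.24). Without LiKM 1, 2 or 3 or LiK 3, edgeR called 1 of this list, and without LiK 1 or LiK 2 it called 0.

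**Figure D5:**
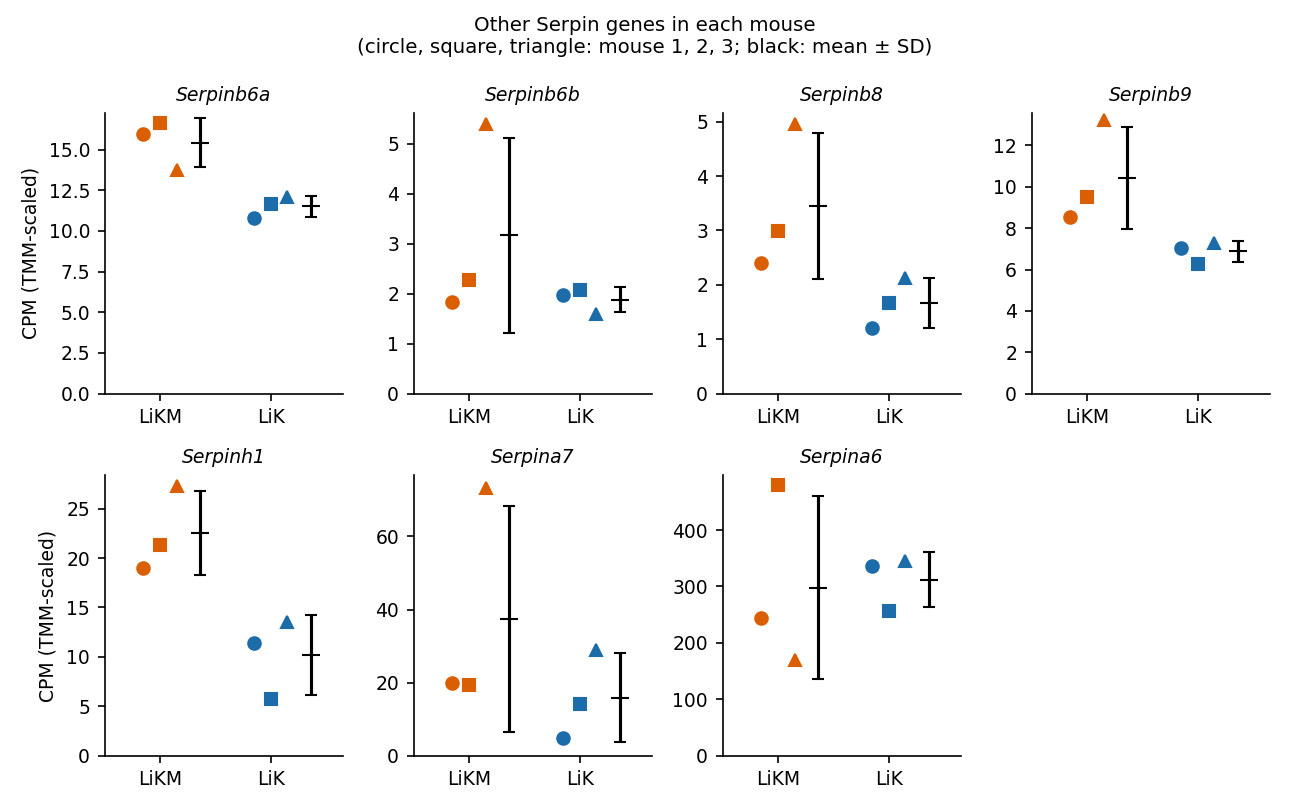
TMM-scaled CPM of 7 further Serpin genes in each mouse, LiKM left of LiK; circle, square and triangle are mice 1, 2 and 3, and black marks are mean ± SD. Serpinb6a, Serpinb8, Serpinb9 and Serpinh1 do not overlap between genotypes, and Serpinb6b, Serpina7 and Serpina6 do.

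Scaled by the length of all annotated exons of a gene together, the same 5 members had the highest levels in both genotypes. In CPM per kilobase of exon, Serpina3k stood at 2566 in LiKM and 3070 in LiK. Serpina1b stood at 1731 in LiKM and 2339 in LiK, and Serpina1a at 1579 in LiKM and 2340 in LiK. Serpina1c stood at 1094 in LiKM and 2089 in LiK, and Serpina1d at 934 in LiKM and 1318 in LiK. Lower levels were those of Serpinf2, at 413 in LiKM and 429 in LiK, Serpina3m, at 397 in LiKM and 420 in LiK, and Serping1, at 387 in LiKM and 509 in LiK. Serpina1e, at 33.0 in LiKM and 79.3 in LiK, was far below its sister copies. The order depends on the length used. Serpinc1 stood at 220 in LiKM and 251 in LiK, with 8546 bases of annotated exon but 1398 coding bases. In mean CPM without length scaling, Serpinc1 had 1881 in LiKM, above Serpina1c at 1489 and Serpina1d at 1302. Clade A held 79.0% of all counts of the members, clade C 7.75%, clade F 6.08%, clade G 3.98% and clade D 3.00%, while clade B held 0.106%. Over the 32 tested members, the median coefficient of variation among mice was 23.5% in LiKM (5.10% to 82.7%) and 20.5% in LiK (2.00% to 76.2%). LiKM 2 was the lowest LiKM mouse for 17 of the 32 and LiKM 3 the highest for 16, and in LiK the highest was LiK 1 for 16 and the lowest LiK 3 for 16.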

How the data were processed

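The table that the authors deposited holds unnormalised read counts for each gene symbol in each mouse, and 0 columns were left unused. The submitters' processing notes name featureCounts for counting and FastQC 0.11.7. Libraries came from a stranded kit for messenger RNA, per the labels' protocols. Not given in the sources used here: aligner, genome build, annotation, strand setting and treatment of reads that fit several genes. Titles number the mice 1 to 3 within a genotype, each with its own code, so libraries were taken as separate animals; no pair agreed within sampling noise.

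Of 26608 symbols, 6335 had no count. The default filter in edgeR 4.0.16 left 13537 genes, those with about 10 counts in 3 libraries and 15 in all. A gene can pass this filter through either genotype alone, so a gene scarce in LiK may be tested only for its LiKM counts. They were tested by quasi-likelihood with TMM scaling (factors 0.903 to 1.11) and genotype as the only term, in R 4.3.3. The common biological coefficient of variation was 22.3%. Standard errors came from the coefficient and its F statistic. Sums over genes were compared by two-sided exact permutation over the mice. Alternatives were other scalings and filters, DESeq2 1.42.0, limma-voom (limma 3.58.1), a test against a 1.5-fold change, a replicate block and leaving out each library.

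The members and 17 gene lists (209 memberships, all matched, 3 of them by an older symbol) were chosen with earlier results of these data known. Values in every mouse were set by rule for called members, all Serpina1 copies, tested Serpina3 copies and the 2 most abundant members of each clade; the other members, and the collagen, protease and marker genes named beyond the rule, were chosen once their values had been seen. Coding sequences and promoters were compared with Biopython 1.88 and MAFFT 7.526; RefSeq promoters were found for 30 of 40 members, and those of the other 10 were not used here. The values of 1 member are not reported here.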

Additional observations from a re-analysis of the deposited data

How the results depend on the processing

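Under 15 other settings, 16 of the 32 tested members kept their direction and their side of the threshold in each that tested them (Serpini1 fell below the filter of 1 CPM in 3 libraries), and 4 reversed in at least 1. Genes called over the whole table numbered 802, against 1591 with DESeq2, 1323 with limma-voom, 127 in the test against a 1.5-fold change and 19 to 626 when a library was left out. Members called higher numbered 2, against 4 with limma-voom, 0 in the 1.5-fold test and 0 to 2 without a library. Members called lower numbered 3, against 6 with DESeq2, 5 with limma-voom, 1 in the 1.5-fold test and 0 to 3 without a library. Fits without a library have fewer mice, and the number of genes they called varied with the library left out. The cause of these and the other differences was not tested. Scaling by library totals moved the median of all genes by 0.16 on the log2 scale and the share of calls that were higher to 94.3%, against 86.3% with TMM. Under it the members' median was 0.09, and 4 members near 0 turned positive: Serpina3m (0.085), Serpinf2 (0.10), Serpina6 (0.11) and Serpina10 (0.11). Serpina6 was also positive with limma-voom (0.14). Without a library, Serpina3m ranged from -0.45 to 0.20, Serpina6 from -0.62 to 0.19, Serpina10 from -0.18 to 0.040, and the summed Serpina3 share from -0.182 to 0.00499 percentage points, positive without LiKM 2. Without a library the summed difference stayed between -0.602 and -0.383 percentage points for the Serpina1 copies and between -0.916 and -0.512 for all members. As shares of raw library totals these differences were -0.347 and -0.433, and that of the Serpina3 copies was -0.0242. Serpina4-ps1 passed with no filter (adjusted p = 0.0471), with DESeq2 (0.0198) and with limma-voom (0.0234), and up to 0.210 elsewhere. Serpina11 passed with DESeq2 (0.00688) and limma-voom (0.0208), and its adjusted p reached 1.00 elsewhere. Same-numbered mice correlated at 0.267, -0.0003 and 0.127 in their deviations from the genotype means. LiKM 1 and LiKM 3 correlated best with their own number, and LiKM 2 did not. No label says that equal numbers pair mice, so the numbers were not taken as pairs. A replicate block called 835 genes, 3 members higher and 2 lower: Serpinh1 (adjusted p = 0.0494) and Serpina9 (0.0488) passed, and Serpina1c (0.0529) and Serpina1e (0.0693) did not. Counts under about 10 per library, as for the 8 untested members, limit what can be said of them.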

Other observations

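Further liver cell types were followed by marker lists that bear on no single Serpin result. Of 10 endothelial markers, 1 was called higher in LiKM, Plvap (log2 fold change 0.74, SE 0.10, edgeR adjusted p = 0.0170), a protein of the diaphragms of fenestrated endothelium, with a list median of 0.25. Without LiKM 2, LiK 1 or LiK 2, edgeR called 0 endothelial markers. Cholangiocyte markers had a median of 1.05 over 6 tested, and edgeR called 0 of them (3 higher at an unadjusted p under 0.05), limma-voom 0 and DESeq2 2 higher. Their summed level was 109 to 231 CPM in LiKM, against 82.3 to 254 CPM in LiK. Mesothelial markers (5 tested, median 0.32) and platelet markers (1 tested, 0.22) had 0 calls with edgeR, DESeq2 and limma-voom, and 0 at an unadjusted p under 0.05.

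At the scarce end of the Serpina3 mix, some shares did not overlap between genotypes. Serpina3f made up 0.0857% ± 0.0342 of the Serpina3 counts in LiKM and 0.0214% ± 0.0095 in LiK, and Serpina3g 0.255% ± 0.0919 in LiKM and 0.0808% ± 0.0404 in LiK (SD, n = 3 each), with no overlap between genotypes (exact permutation p = 0.1 for each, the smallest possible). The untested Serpina3j had 2, 0 and 1 counts in LiKM, against 5 in each LiK mouse, and Serpina3b had 7, 5 and 0 counts in LiKM, against 2 in each LiK mouse.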
